A study of Mus musculus with 10 samples.

Results

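The casein gene cluster was described by the STAT5 peaks that lay around its genes. Members were the peaks of 3 ChIP-seq peak lists whose centres fell within chromosome 5, positions 88050000 to 88420000 of the mm9 mouse build. These 370 kb were set to run from 50 kb beyond Csn1s1 to 50 kb beyond Csn3. They held 53 of the 35791 peaks in the 3 lists. Genes could be placed on GRCm38 alone, so the ends of the window were taken as given, and peaks were not assigned to a single gene, exon or intron.

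The groups were Stat5a-null mammary tissue (BB), which retains Stat5b alone, with STAT5B precipitated; wild type mammary tissue (AABB), which carries both genes, with STAT5B precipitated; and wild type tissue with STAT5A precipitated. All mice were of a mixed 129SV::FVB/N::C57BL/6 background and were sampled on the day of parturition. Each group has 1 library, so no difference between lists has a replicate check, no p-value is given, and 95% intervals cover counting error only. The tissue was whole mammary gland, in which fewer secretory cells and less binding per cell cannot be told apart, and the number of animals behind each library is not stated.

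Caseins are the main proteins of milk. Prolactin acting on secretory mammary epithelium activates STAT5A and STAT5B, closely related transcription factors that bind DNA as dimers, and casein genes are their textbook targets in this tissue. Csn1s1 encodes alpha-S1-casein and Csn2 encodes beta-casein. Csn1s2a and Csn1s2b encode alpha-S2-like caseins, and these genes together give the calcium-binding caseins of the milk micelle. Csn3 encodes kappa-casein, which coats and stabilises the micelle. In the RefSeq gene table the 5 casein genes stood in the order Csn1s1, Csn2, Csn1s2a, Csn1s2b and Csn3. The table placed 7 other genes between the first and the last of them, of which 3 encode proteins (Prr27, Odam and BC037156) and 4 are pseudogenes or a non-coding RNA. Odam encodes a protein known from enamel-forming cells.

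STAT dimers recognise the palindrome TTCNNNGAA, which reads alike on both strands. Promoter sequences were at hand for 3 of the 5 genes, Csn1s1, Csn2 and Csn1s2a, and are shown because they are the sequences of the cluster in which that motif could be sought. The 250 bases before each transcription start, from RefSeq GRCm38.p6, are given 5′ to 3′ on the strand of the gene. Capitals mark TTCNNNGAA or the same TTC and GAA arms around a spacer longer by 1 base.
Csn1s1 (chr5:87665958-87666207, plus strand): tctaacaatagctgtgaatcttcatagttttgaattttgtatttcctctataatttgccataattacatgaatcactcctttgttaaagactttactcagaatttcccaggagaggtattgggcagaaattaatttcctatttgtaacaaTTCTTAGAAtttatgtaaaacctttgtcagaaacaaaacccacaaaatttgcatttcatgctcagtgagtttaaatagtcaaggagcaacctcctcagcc
Csn2 (chr5:87699426-87699675, minus strand): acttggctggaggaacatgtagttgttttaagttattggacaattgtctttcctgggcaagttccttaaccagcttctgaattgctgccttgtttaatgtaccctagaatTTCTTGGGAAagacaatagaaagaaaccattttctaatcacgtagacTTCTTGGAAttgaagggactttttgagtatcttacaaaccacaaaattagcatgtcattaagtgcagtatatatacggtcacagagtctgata
Csn1s2a (chr5:87774200-87774449, plus strand): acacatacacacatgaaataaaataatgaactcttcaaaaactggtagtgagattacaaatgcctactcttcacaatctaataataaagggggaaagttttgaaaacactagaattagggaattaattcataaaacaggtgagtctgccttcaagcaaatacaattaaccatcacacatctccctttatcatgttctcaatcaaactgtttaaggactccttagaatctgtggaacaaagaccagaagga
These GRCm38 positions must not be set against the mm9 positions of the peaks.

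Each of the 3 casein promoter windows, taken as 250 bases before to 50 bases after the start, held 1 TTCNNNGAA. In Csn1s1 it was TTCTTAGAA, 100 to 92 bases before the start. In Csn2 it was TTCTTGGAA, 93 to 85 bases before the start. In Csn1s2a it was TTCTTAGAA, in transcribed bases 21 to 29, and so outside the stretch printed above. Csn2 also held TTCTTGGGAA, the longer-spaced form, 140 to 131 bases before the start, which overlaps none of the other matches. Among all 32851 promoter windows of the table, 8.30% held TTCNNNGAA and 6.95% held the form with the longer spacer. A match describes the letters only, and whether a peak lies on these promoters was not examined.

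The Stat5a-null STAT5B list placed 13 peaks in the casein window, against 15 in the wild type STAT5B list and 25 in the wild type STAT5A list. The lists differ in length, and with each cut to its 2578 highest-scoring peaks the window held 13 Stat5a-null STAT5B, 11 wild type STAT5B and 11 STAT5A peaks. Uncut, the window held 0.504% of the 2578 Stat5a-null STAT5B peaks, 0.215% of the 6976 wild type STAT5B peaks and 0.0953% of the 26237 STAT5A peaks. Peaks were dense there in each list. The Stat5a-null list had 35.1 peaks per Mb (18.7 to 60.1), 38.6 times (20.5 to 65.9) its density over chromosome 5. The wild type STAT5B list had 40.5 per Mb (22.7 to 66.9), 16.8 times (9.38 to 27.6) its density over the chromosome. STAT5A had 67.6 per Mb (43.7 to 99.7), which was 7.56 times (4.89 to 11.2). These ratios come from lists of different length and are not compared with each other.

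**Figure D1:**
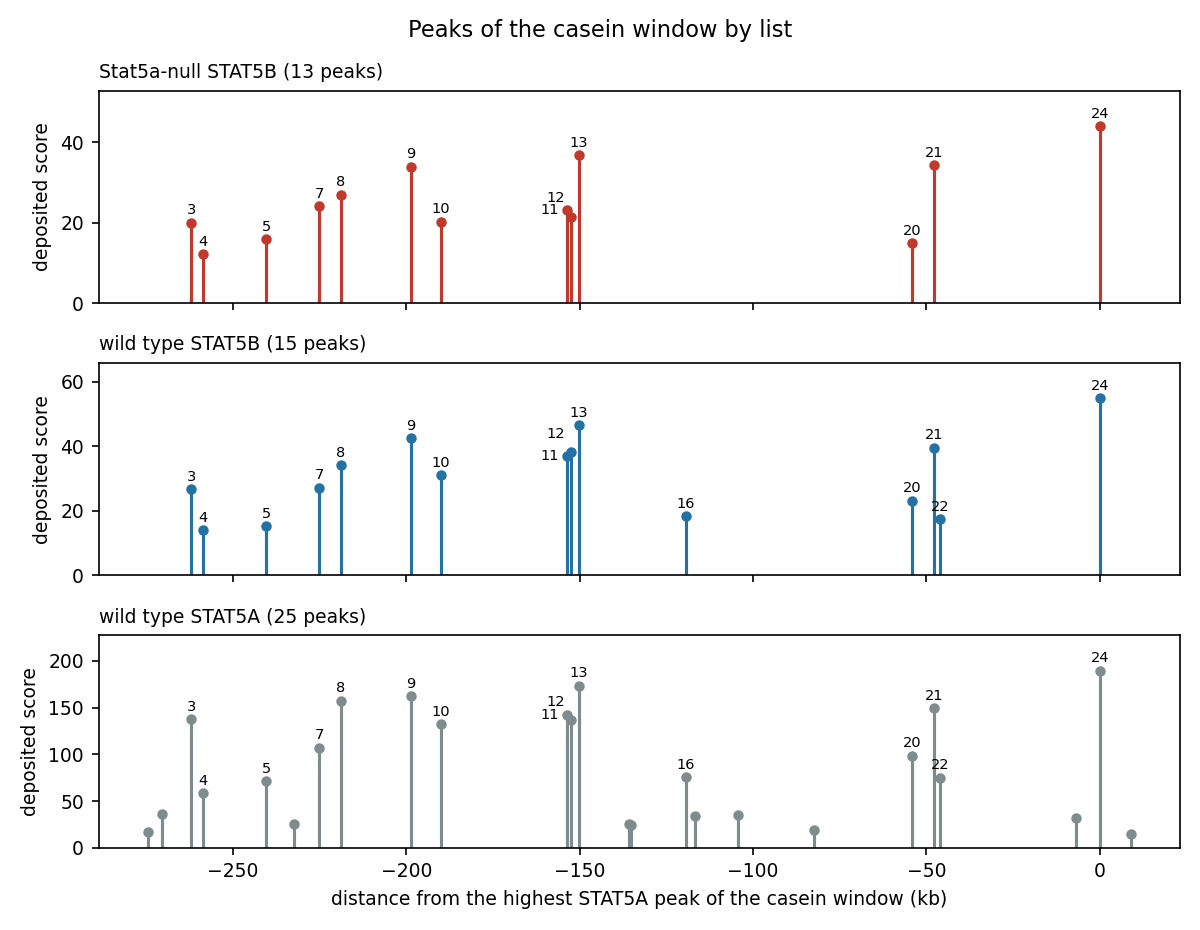
Peaks of the casein window in the 3 lists, each a vertical line at its distance in kb from the highest STAT5A peak (x axis), with the deposited score of its own list as height (y axis). Numbers are site numbers, given for sites with a STAT5B peak. The sites 16 and 22 have a line in both wild type panels and none in the Stat5a-null panel, and the 10 short unnumbered lines are STAT5A peaks without a called STAT5B peak.

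Set among 7146 consecutive windows of this length over all placed chromosomes, the casein window held the most Stat5a-null STAT5B peaks. Its 13 peaks stood against at most 8 in any other window, and 77.8% of windows had none. In wild type STAT5B 2 windows had more than its 15 peaks, up to 17. In STAT5A 3 windows had more than its 25 peaks, up to 38, and 3 others had as many. The casein window was set around its genes while the others were cut at fixed steps. When windows were instead placed to hold as many peaks as possible, the highest number of Stat5a-null peaks elsewhere was 10. By that placing 3 stretches elsewhere had at least 15 wild type STAT5B peaks, and 24 had at least 25 STAT5A peaks. These counts describe the lists and are no test.

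**Figure D2:**
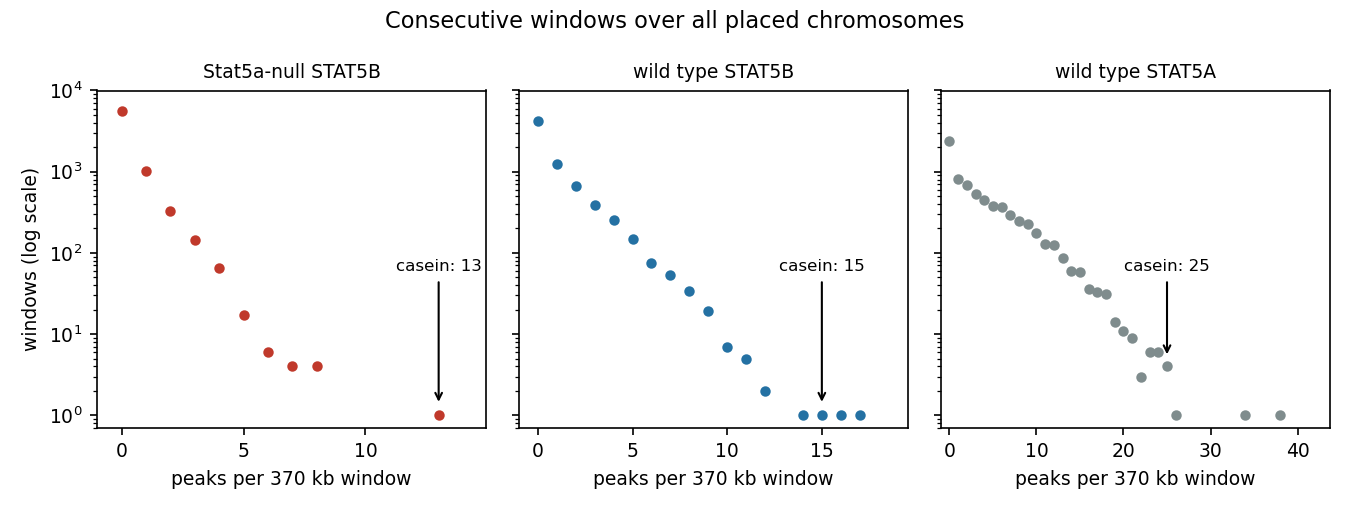
Number of consecutive 370 kb windows (y axis, log scale) by the number of peaks they hold (x axis) in each list, 1 point for each number that occurs. The arrow marks the casein window. It stands alone at 13 peaks in the Stat5a-null STAT5B list, where the next windows hold 8, and inside the upper tail in the wild type lists.

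Merging overlapping peaks gave 25 sites, numbered here 1 to 25 along the chromosome. Each site held 1 STAT5A peak. STAT5B of both genotypes was found with STAT5A at 13 sites, or 52.0% (31.3% to 72.2%), against 9.12% of the 26339 sites of the genome. STAT5B was found in wild type and not in Stat5a-null tissue at 2 sites, or 8% (0.984% to 26.0%), against 17.0% of sites of the genome. STAT5A was called alone at 10 sites, or 40% (21.1% to 61.3%), against 72.9%. A missing peak means only that none was called in that list. The lowest score called was 8.2 in Stat5a-null STAT5B and 9.3 in wild type STAT5B. Whether weaker STAT5B signal lay at sites without a call was not tested. No casein site had STAT5B without STAT5A, or Stat5a-null STAT5B without wild type STAT5B. Each of these classes had 0 of 25 sites, which allows a share of up to 12% (3 counts of 25). They are rare in the genome too, at 0.0532% to 0.516% of sites, so 25 sites cannot set the cluster apart in this.

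The highest casein site was the same in every list. Site 24 (chr5:88353542-88353817) had a score of 44.0 in Stat5a-null STAT5B, 54.9 in wild type STAT5B and 189.4 in wild type STAT5A, each on its own list's scale. The score is the authors' value per peak, whose unit is not stated, and it serves here to order peaks within a list. Site 24 ranked 53 of 2578 in Stat5a-null STAT5B, 89 of 6976 in wild type STAT5B and 82 of 26237 in STAT5A. It stood 6.53 kb from its neighbour on the left, which had STAT5A alone, and it was the last site with STAT5B in the window. To its right the next STAT5B peak of either genotype lay 1.42 Mb beyond the window.

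Site 13 (chr5:88203309-88203584) came second in all 3 lists, with a score of 36.8 in Stat5a-null STAT5B, 46.6 in wild type STAT5B and 173.5 in STAT5A. It closed a tight group of 3 sites, since site 11 (chr5:88199833-88200162) and site 12 (chr5:88201071-88201380) lay within 4 kb of it. Site 11 scored 23.1 in Stat5a-null STAT5B, 37.0 in wild type STAT5B and 142.4 in STAT5A. Site 12 scored 21.5 in Stat5a-null STAT5B, 38.2 in wild type STAT5B and 136.5 in STAT5A. In both STAT5B lists this run of 3 peaks was the longest with gaps of at most 5 kb.

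Site 9 (chr5:88154796-88155177) and site 21 (chr5:88305708-88305996) were the remaining sites in the highest-scoring decile of every list. Site 9 scored 33.9 in Stat5a-null STAT5B, 42.5 in wild type STAT5B and 161.8 in STAT5A. Site 21 scored 34.3 in Stat5a-null STAT5B, 39.6 in wild type STAT5B and 149.4 in STAT5A. Site 8 (chr5:88134594-88134916) scored 26.9 in Stat5a-null STAT5B, 34.1 in wild type STAT5B and 157.3 in STAT5A. All of these sites also stood above the median score of the list, which was 16.7 for Stat5a-null STAT5B, 17.7 for wild type STAT5B and 27.1 for STAT5A.

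The other shared sites were sites 3, 4, 5, 7, 10 and 20. Site 3 (chr5:88091456-88091762) scored 20, site 7 (chr5:88128410-88128702) 24.0, site 10 (chr5:88163394-88163679) 20.2 and site 20 (chr5:88299227-88299580) 14.9 in Stat5a-null STAT5B. In wild type STAT5B these sites scored 26.7, 27.2, 31.0 and 23.2, and in STAT5A 137.4, 107.2, 132.4 and 98.4. Site 5 (chr5:88113151-88113460) scored 15.8 in Stat5a-null STAT5B, 15.3 in wild type STAT5B and 71.6 in STAT5A. Site 4 (chr5:88094952-88095249) was the lowest STAT5B site in both genotypes, with 12.2 in Stat5a-null STAT5B and 14.1 in wild type STAT5B, and it scored 58.7 in STAT5A.

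In each list the share of casein peaks in the highest-scoring decile was above 10.0%. The counting intervals of the wild type lists lay above that share, and the interval for Stat5a-null STAT5B included it. The intervals of the lists overlap each other, so this does not set the Stat5a-null list apart. They treat neighbouring peaks of a library as independent, and no difference between lists was tested. The highest-scoring decile of the list, 10.0% of peaks by definition, took 4 of the 13 Stat5a-null STAT5B peaks, 7 of the 15 wild type STAT5B peaks and 11 of the 25 STAT5A peaks. The share was 30.8% (9.09% to 61.4%) in Stat5a-null STAT5B, 46.7% (21.3% to 73.4%) in wild type STAT5B and 44.0% (24.4% to 65.1%) in STAT5A. Above the list's median score stood 10 of 13 peaks in Stat5a-null STAT5B, 12 of 15 in wild type STAT5B and 19 of 25 in STAT5A. On chromosome 5 the highest casein peak ranked 6 of 139 in Stat5a-null STAT5B, 7 of 369 in wild type STAT5B and 5 of 1363 in STAT5A.

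The next comparison asked which casein sites STAT5B occupied when STAT5A was missing. Nearly all wild type STAT5B sites of the cluster were also found without Stat5a. A Stat5a-null STAT5B peak lay on 13 of the 15 wild type STAT5B peaks, or 86.7% (59.5% to 98.3%), against 34.8% of the whole list. High-scoring peaks of the list had a Stat5a-null partner more often than low-scoring ones, and casein peaks scored high. If each casein peak had the share of its own score decile, 9.86 of the 15 would have a partner, or 65.8%, which lies inside the interval. The excess over peaks of like score was therefore not shown at this number of peaks. In the other direction all 13 Stat5a-null peaks overlapped a wild type STAT5B peak (100%, 75.3% to 100%), against 94.1% of their list.

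The 2 wild type STAT5B sites missing from the Stat5a-null list were not those with the lowest wild type STAT5B scores of the cluster. They were site 16 (chr5:88234228-88234503), with a score of 18.4 in wild type STAT5B and 75.2 in STAT5A, and site 22 (chr5:88307502-88307777), with 17.4 in wild type STAT5B and 74.9 in STAT5A. In the deciles of the wild type STAT5B list that hold them, the fifth and the sixth, 30.8% and 21.5% of peaks had a Stat5a-null partner. Sites 5 and 4, which did have one, lay in the seventh and the eighth decile, where 12.8% and 9.47% of peaks had one. Tags were read as the score divided by the step by which the scores of a list change. There were 77 (60.8 to 96.2) at site 16 and 73 (57.2 to 91.8) at site 22. There were 64 (49.3 to 81.7) at site 5 and 59 (44.9 to 76.1) at site 4. The counting intervals of these sites overlapped, so their order was not resolved. Site 22 lay 1.5 kb from site 21, while site 16 had no other STAT5B site within 30 kb.

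**Figure D3:**
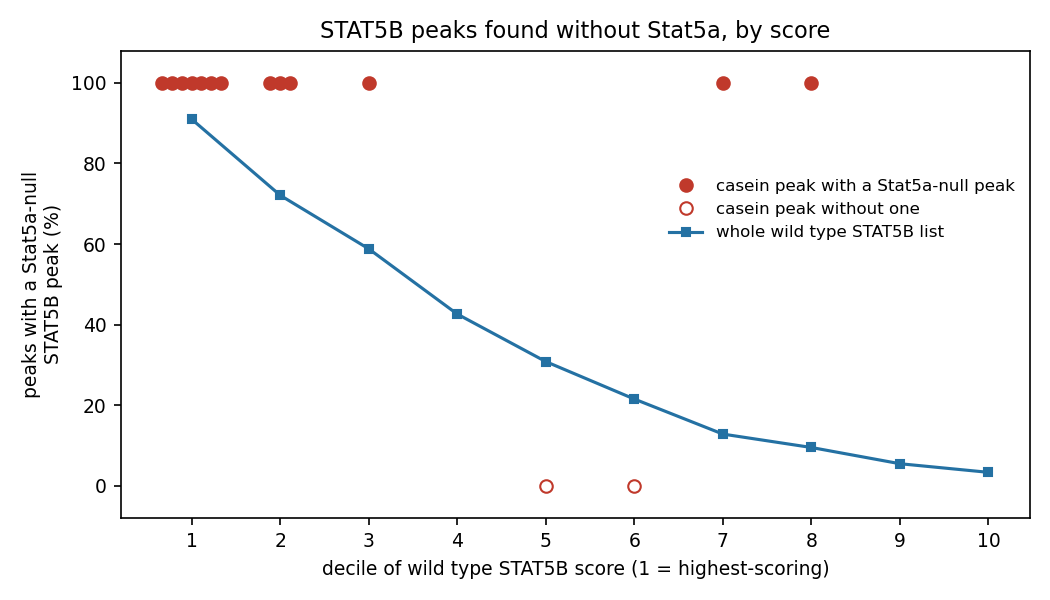
Share of wild type STAT5B peaks that overlap a Stat5a-null STAT5B peak (y axis, %) by decile of wild type STAT5B score (x axis). Squares show the whole list. Circles are the 15 casein peaks, drawn at the top when they have a Stat5a-null peak (13 peaks, filled) and at the bottom when they do not (2 peaks, open). The whole list falls to 3.30% in the lowest decile, and the casein peaks without a partner lie in deciles 5 and 6.

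Other stretches rich in STAT5B held fewer Stat5a-null peaks. At least 10 wild type STAT5B peaks were found in 17 other windows of the same length. A median of 37.5% of their wild type STAT5B peaks had a Stat5a-null partner (range 23.5% to 60%), against 86.7% in the casein window, and they held 3 to 8 Stat5a-null peaks. With windows placed to hold the most wild type STAT5B peaks, 42 other stretches had at least 10, and the share ranged to 80% with a median of 41.4%. Scores of the peaks in these windows were not matched to those of the casein peaks, and no test of the difference was made.

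STAT5A peaks of the cluster split cleanly by score. The 15 with wild type STAT5B scored 58.7 to 189.4, with a median of 136.5, and the 10 without it scored 14.4 to 36.2, with a median of 25.6. No casein peak scored between 36.2 and 58.7. Over the whole STAT5A list 95.5% of the 5018 peaks at or above 58.7 had a wild type STAT5B peak, and 1.06% of the 16662 peaks at or below 36.2 had one. The casein window thus had 60% (38.7% to 78.9%) of its STAT5A peaks with wild type STAT5B, against 26.3% of the list, and 60.1% by the shares of their score deciles. With each list cut to the length of the shortest, all 11 remaining STAT5A peaks had a wild type STAT5B peak (100%). In the highest-scoring decile of the uncut STAT5A list 99.2% of peaks had one. The share over all peaks of the cut lists is not given here, so this 100% does not set the cluster apart.

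With Stat5a-null STAT5B, the STAT5A peaks of the cluster overlapped in 13 of 25 cases, or 52.0% (31.3% to 72.2%), against 9.67% of the list. The shares of their score deciles would give 8.39 peaks, or 33.6%, again inside the interval. With the lists cut to the length of the shortest, all 11 remaining STAT5A peaks had a Stat5a-null STAT5B peak (100%). The share over all peaks of those cut lists is not given here. Each of the 11 casein peaks in the highest STAT5A decile had a Stat5a-null STAT5B peak, against 68.3% of that decile in the list. These 11 peaks ranked from 82 to 1767 in a decile of 2624 peaks. They were not matched by score within it, so this share does not set the cluster apart. A STAT5A peak lay under all 13 Stat5a-null and all 15 wild type STAT5B peaks. The share was 100% (75.3% to 100%) for Stat5a-null STAT5B, against 98.4% of its list, and 100% (78.2% to 100%) for wild type STAT5B, against 98.7% of its list.

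Sites of the cluster kept a similar order of height across the lists. Over the 13 sites with STAT5B in both genotypes, the score of Stat5a-null STAT5B went with that of wild type STAT5B at a Spearman rho of 0.92 and a Pearson r of 0.92. Over all 2426 shared peaks of the genome the values were 0.69 and 0.83. Against STAT5A, rho was 0.91 for Stat5a-null STAT5B over 13 sites, with 0.67 over the 2537 shared peaks of the genome. For wild type STAT5B against STAT5A it was 0.95 over 15 sites, with 0.90 over 6888 shared peaks. The libraries share the DNA sequence of each site, and the casein sites are few, so these are descriptions.

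Heights of STAT5B were also expressed as a percentage of site 24 in the same list and set side by side between genotypes. Of the 12 other shared sites, 8 were relatively lower in Stat5a-null than in wild type tissue and 4 were higher, and at each of the 12 the counting intervals overlapped. The intervals are wide, so their overlap does not show that the heights were alike, and no difference was tested. The widest difference was at site 12, with 48.9% (38.1% to 62.1%) in Stat5a-null STAT5B and 69.6% (56.5% to 85.5%) in wild type STAT5B. Site 9 had 77.0% (62.3% to 95.1%) in Stat5a-null STAT5B and 77.4% (63.3% to 94.5%) in wild type STAT5B. Site 5 had 35.9% (27.2% to 46.9%) in Stat5a-null STAT5B and 27.9% (20.8% to 36.9%) in wild type STAT5B.

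As a percentage of site 24, STAT5A was higher than STAT5B at the other sites with both. Relative to site 24, all 12 other shared sites were lower in Stat5a-null STAT5B than in STAT5A, with intervals apart at 5 of them. Of the 14 other wild type STAT5B sites, all 14 were relatively lower than in STAT5A, with intervals apart at 1. That site was site 3, at 45.5% (35.3% to 58.2%) in Stat5a-null STAT5B, 48.6% (38.5% to 61.3%) in wild type STAT5B and 72.5% (66.1% to 79.5%) in STAT5A. All these ratios share site 24, the highest casein peak of each list, so the directions at the other sites are not separate observations. No difference was tested, and no value over the genome is given. Between STAT5B and STAT5A the antibody and the protein cannot be told apart.

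**Figure D4:**
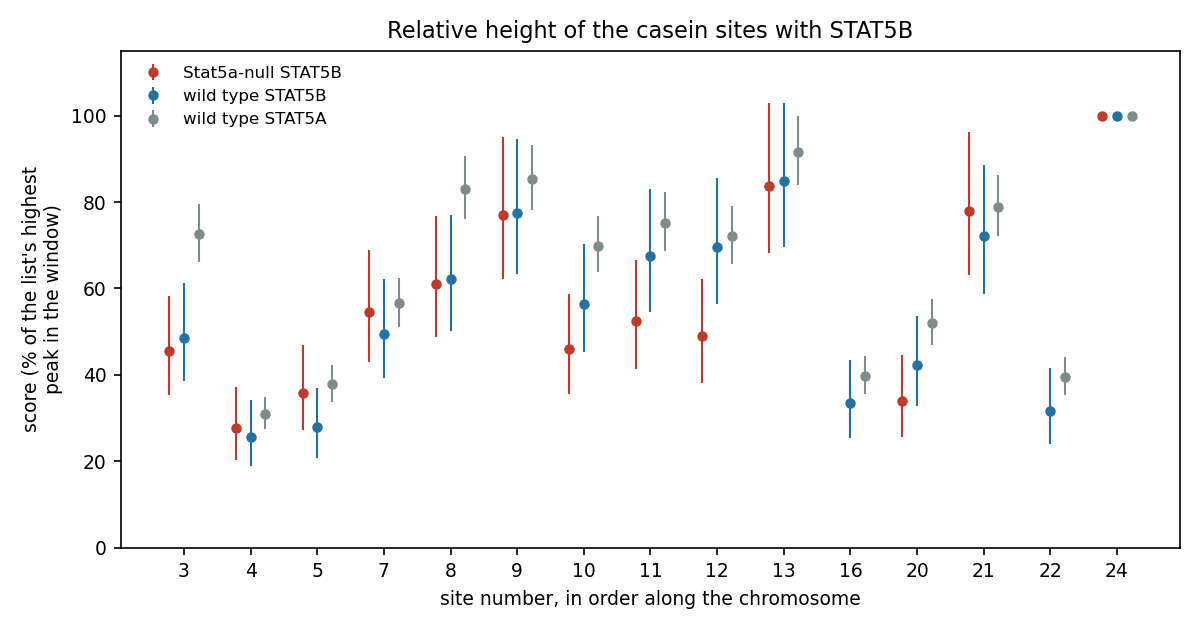
Score of the 15 casein sites with STAT5B as a percentage of the score of site 24 in the same list (y axis), in order along the chromosome (x axis, not to scale). Bars are exact 95% intervals of the ratio of tag counts and cover counting error only; site 24 is 100% by definition. Sites 16 and 22 have no Stat5a-null point, and at the 12 other shared sites the Stat5a-null and wild type STAT5B bars overlap.

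The weakest peak of the whole list held 39 tags in Stat5a-null STAT5B, 39 in wild type STAT5B and 64 in STAT5A. Within a list, most neighbours in the order of height could not be told apart by counting. The tags per casein peak ran from 58 to 209 in Stat5a-null STAT5B, from 59 to 230 in wild type STAT5B and from 84 to 1103 in STAT5A. No interval of any of the 12 neighbouring pairs in Stat5a-null STAT5B or the 14 in wild type STAT5B stood apart, and 3 of the 24 in STAT5A did. Site 24 stood above 9 of the 12 other sites in Stat5a-null STAT5B, above 12 of 14 in wild type STAT5B and above 23 of 24 in STAT5A. The order between the top sites 24, 13, 21 and 9 in Stat5a-null STAT5B was thus not resolved.

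Peak centres of Stat5a-null and wild type STAT5B had a larger median distance at the few casein sites than over the whole list. Stat5a-null and wild type STAT5B centres were a median of 41.0 bp apart over 13 sites (range 6.00 to 121), against 19.0 bp over all shared peaks, and 9 of the 13 lay within 50 bp, against 87.4% of all shared peaks. No interval was drawn for this share, and no test of this difference was made. Stat5a-null STAT5B and STAT5A centres were a median of 22.0 bp apart over 13 sites, and wild type STAT5B and STAT5A centres 16.0 bp over 15 sites, against 19.0 bp over all shared peaks for each of these pairs. Within 50 bp lay 12 of the 13 and 13 of the 15, against 90.0% and 90.5% of all shared peaks. At site 9, the widest case, the wild type STAT5B centre lay 121 bp from the Stat5a-null centre and 118 bp from the STAT5A centre, and the Stat5a-null and STAT5A centres lay 3 bp apart.

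STAT5A peaks also lay in stretches where no STAT5B peak was called. The longest gap between Stat5a-null STAT5B peaks was 95.8 kb, from site 13 to site 20. Wild type STAT5B had site 16 in that stretch and a longest gap of 64.8 kb, and STAT5A had 6 peaks there. One of these was site 16, and the others (sites 14, 15, 17, 18 and 19) had no STAT5B peak called and scored 19.2 to 34.7. Median gaps were 11.7 kb in Stat5a-null STAT5B, 11.6 kb in wild type STAT5B and 7.82 kb in STAT5A.

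At the ends of the window, the first and last STAT5A peaks inside were sites 1 (chr5:88078979-88079254, score 16.8) and 25 (chr5:88362419-88362694, score 14.4). Just outside on the left, a STAT5A peak without STAT5B (score 15.5) lay 2.61 kb beyond the end. A wild type STAT5B peak without a Stat5a-null partner (score 16.0) lay 44.6 kb beyond it, and the next Stat5a-null STAT5B peak (17.9) lay 57.6 kb beyond it. On the right the next STAT5A peak (34.7) was 0.310 Mb away.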

How the data were processed

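The series holds 10 ChIP-seq samples, of which the peak lists of 3 were used and 7 samples were not used here. Per the submitters' processing notes, reads were handled with CASAVA, BWA and HOMER on mm9; no tool version is given in the sources used here. An input sample is listed for each genotype, but whether it served as the control in peak calling is not given, nor is the meaning of the number that the names of the lists carry. The deposited lists give 1 signal value per peak in an unstated unit (the score); scores were used within their own list only. Peak width is fixed within a list, at 258 bp (Stat5a-null STAT5B), 252 bp (wild type STAT5B) and 276 bp (STAT5A). Within a list every score was a whole multiple of 1 step (0.210, 0.239 and 0.172 in the same order, tolerance 0.051, the largest step that fits between 0.155 and 0.4), and score divided by step was read as tags. Total reads are unknown.

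Groups came from the sample titles and the design text. An overlap of at least 1 bp made peaks shared; positions are printed 1-based. Shares have exact Clopper-Pearson intervals, and counts exact Poisson intervals. Heights as a percentage of site 24 have exact conditional binomial intervals of the ratio of tag counts. All intervals are at 95% and for counting error only. Densities and consecutive windows used the mm9 chromosome lengths in GenomeInfoDb 1.38.1. The tools were scipy 1.17.1, numpy 2.4.6, matplotlib 3.10.9 and pandas 2.3.3 on Python 3.11.15, and the overlap step was tested on simulated data. Sites were named by a set rule: every STAT5B peak of the window, and STAT5A peaks by count, range and extremes. STAT5A-only sites 14, 15, 17, 18 and 19 were named after their values were seen. The members and lists were chosen with earlier results of these data known. Other milk genes and the place of peaks in genes were planned for an mm9 annotation and were not analysed here.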

Additional observations from a re-analysis of the deposited data

How the results depend on the processing

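For 29 values 81 alternatives were run. A share that left its counting interval, or a count that changed by over 1.5 times, was seen in 8 of them. Cutting each list to the 2578 peaks of the shortest left 13 Stat5a-null STAT5B, 11 wild type STAT5B and 11 STAT5A peaks in the window. All 11 remaining wild type STAT5B peaks and all 11 remaining STAT5A peaks then had a Stat5a-null STAT5B peak (100% each), as did all 11 STAT5A peaks a wild type STAT5B peak (100%). Cutting keeps only the highest-scoring peaks, and the shares over all peaks of the cut lists are not given here. With gaps of 25 kb in place of the shorter gap set first (3, 3 and 4 peaks in a run), the longest run held 7 peaks in Stat5a-null STAT5B, 7 in wild type STAT5B and 10 in STAT5A. Windows placed to hold the most peaks, chosen after seeing the data, gave 24 stretches with at least 25 STAT5A peaks in place of 6. For wild type STAT5B peaks, the share found again without Stat5a ranged from 80% with centres within 100 bp to 100% with lists cut to the shortest. A window 50 kb narrower on each side held 11 Stat5a-null, 13 wild type STAT5B and 21 STAT5A peaks. No paired analysis was possible because each group has 1 library, and for the same reason no replicate could be left out. The number of peaks limits the intervals, and the read totals of the libraries are unknown.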
